A study of Mus musculus with 6 samples.

Results

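Msln, Upk3b, Upk1b, Lrrn4, Wt1, Bnc1, Krt8 and Krt19, a set of genes used to mark mesothelial cells, were followed in mouse lung on 6 one-colour Agilent arrays. The 8 genes were chosen by name, each through every array probe whose RefSeq transcript carries that symbol, which gave 9 probes of 56605 in all and 8 genes of 22911 that could be named. Upk1b had 2 probes and each of the other 7 genes had 1. The first group was myofibroblasts, CD49e+ Sca1- Lin- cells sorted from the lungs of mice given bleomycin, an agent that injures the lung and leads to fibrosis. The second was steady-state fibroblasts, sorted as CD140a+ Lin- cells from untreated lungs. The third was homogenate of untreated lung, which holds all of the organ's cells. Each group had 2 arrays and all mice were male. Strain, age, bleomycin dose and time after treatment are not given in the sources used here. The sort gate and the treatment changed together between the sorted groups, so their parts in any difference between them cannot be told apart. Between myofibroblasts and homogenate, sorting and treatment also changed together and cannot be told apart.

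Mesothelial cells form the single-layered epithelium-like sheet, the pleura's surface, that covers the lung. They carry mesothelin and uroplakin family proteins on their surface, contain simple-epithelial keratins, and keep the transcription factor Wt1 from their embryonic origin in the mesoderm. Several of these genes are also used elsewhere in the lung: Krt8 and Krt19 are keratins of airway and alveolar epithelium, and Wt1 is known from other cells of mesodermal origin.

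A promoter window was available for 4 of the markers: Upk3b, Lrrn4, Bnc1 and Krt8. Bnc1, above background on no array, is left out. The promoters of the other 3, whose signal was far below homogenate in both sorted groups, are shown. Each is a window of the RefSeq promoter table, 250 bases before to 50 bases after a start site on GRCm38.p6, read 5′ to 3′ along the gene's strand. For Upk3b and Krt8 that site is the outer end of the gene's RefSeq span, whereas for Lrrn4 it lies inside the span. Upk3b lies on the + strand at chr5:136038246-136038545, Lrrn4 on the - strand at chr2:132880813-132881112, and Krt8 on the - strand at chr15:102004293-102004592. Capitals mark matches, on either strand, to TATAAA (the TATA box), CATTCC (bound by TEAD factors) or GCGTGGG (bound by WT1 and EGR factors).
Upk3b: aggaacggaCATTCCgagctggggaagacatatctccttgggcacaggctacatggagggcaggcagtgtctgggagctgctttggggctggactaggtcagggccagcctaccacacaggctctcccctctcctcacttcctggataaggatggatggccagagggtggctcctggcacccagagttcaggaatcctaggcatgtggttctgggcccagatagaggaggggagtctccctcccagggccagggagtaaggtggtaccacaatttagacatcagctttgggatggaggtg
Lrrn4: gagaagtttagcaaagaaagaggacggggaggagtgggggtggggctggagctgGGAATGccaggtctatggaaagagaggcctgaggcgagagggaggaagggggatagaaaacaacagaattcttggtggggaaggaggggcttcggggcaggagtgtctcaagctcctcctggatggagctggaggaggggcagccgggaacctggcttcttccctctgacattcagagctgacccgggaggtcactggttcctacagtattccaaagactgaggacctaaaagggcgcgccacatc
Krt8: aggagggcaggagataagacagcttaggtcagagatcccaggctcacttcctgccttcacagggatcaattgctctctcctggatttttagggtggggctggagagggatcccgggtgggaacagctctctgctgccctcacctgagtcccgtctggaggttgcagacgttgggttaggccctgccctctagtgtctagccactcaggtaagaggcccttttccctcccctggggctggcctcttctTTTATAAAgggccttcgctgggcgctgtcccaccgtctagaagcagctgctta
CATTCC was found in the Upk3b and Lrrn4 windows, and in 14.7% of 32851 RefSeq promoter windows of the same length. TATAAA was found in the Krt8 window, where its matches on the 2 strands overlap, and in 13.6% of all windows. The Krt8 matches begin at -1 and -3 relative to the start site, so they run across that site and do not stand upstream of it. GCGTGGG was found in none of the 3 windows printed and in 5.04% of all windows. A match describes the letters of the window and is not a known binding site.

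The 75th percentile of processed signal, by which each array was scaled, was 224 and 225 in myofibroblasts, 233 and 230 in fibroblasts, and 282 and 270 in homogenate. Fibroblasts were the least repeatable group: 23.8% of the genes above background on both fibroblast arrays differed by more than 2-fold between them, against 7.89% in myofibroblasts and 2.90% in homogenate. Nothing in the labels says that replicates are different animals, so the p-values speak only of the spread between arrays, part or all of which may be technical. All 6 arrays lay on 1 slide, with the sorted samples in row 1 and the homogenates in row 2, so slide row and the contrast with homogenate cannot be told apart.

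Against homogenate, the mesothelial markers that could be tested were called lower in both sorted populations, except Upk1b in both and Wt1 in fibroblasts. Wt1 lay below homogenate on both fibroblast arrays but did not pass the test. In myofibroblasts 6 of the 7 genes that could be tested were lower than in homogenate and 0 were higher, where 15.1% of all 17155 genes tested were lower and 11.9% higher. In fibroblasts 5 of 7 were lower and 0 higher, where 11.9% of all 17050 genes tested were lower and 8.12% higher. A gene entered a test if 1 or both of the groups compared had it well above background on each array, and it was called at a limma adjusted p under 0.05. The eighth gene, Bnc1, was above background on no array. These counts were fixed in part by the filter, since 5 of the 7 genes passed it only through homogenate. The homogenate arrays are shared by both comparisons. In bulk samples of this kind, fewer cells of a type and less RNA per cell cannot be told apart.

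**Figure D1:**
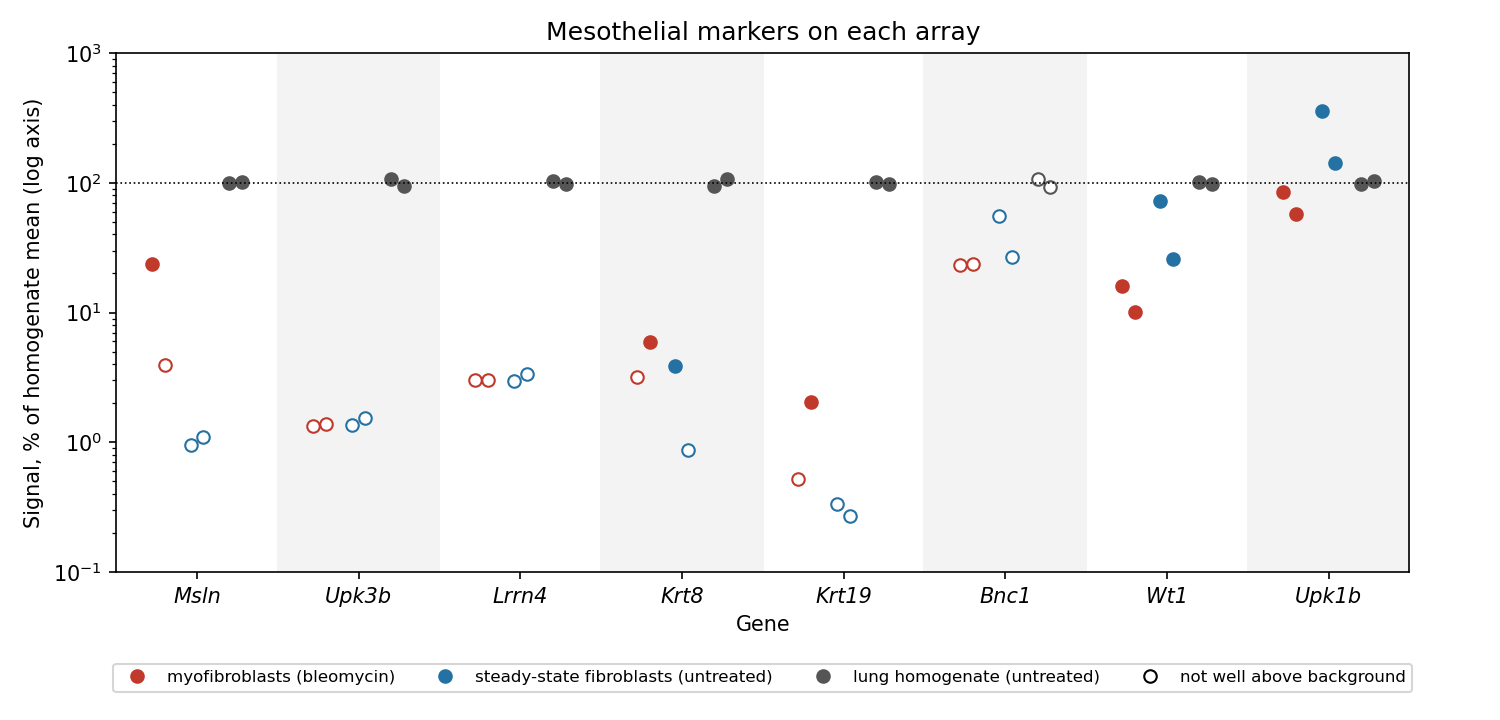
Signal of the 8 mesothelial markers on each of the 6 arrays, as a percent of the homogenate mean after scaling (log axis, 1 point per array). Myofibroblasts, fibroblasts and homogenate run left to right within each gene, and open points were not well above background, so that their height shows no measured level. Msln, Upk3b, Lrrn4, Krt8 and Krt19 lie far below homogenate in both sorted groups, whereas Wt1 and Upk1b were measured on all 6 arrays.

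Msln encodes mesothelin, a surface glycoprotein that is the usual marker of mesothelium. Its processed signal was 51.6 and 8.56 in myofibroblasts, 2.16 and 2.45 in fibroblasts, and 272 and 263 in homogenate. Only the first myofibroblast array and both homogenate arrays were well above background. After scaling, the first myofibroblast array stood at 23.7% of the homogenate mean, and the second at no more than 4.21%, the level of the dimmest probe still above background there. The fibroblast arrays could hold at most 4.07% and 4.79%. No sorted array overlapped homogenate, and the first myofibroblast array stood above the other 3 sorted arrays. Msln was lower in myofibroblasts than in homogenate (limma, adjusted p = 0.0325), with no fold given because 1 of the 2 arrays was not measured. It was at least 22.7-fold lower in fibroblasts than in homogenate (limma, adjusted p = 0.00412). Bounds of this kind set means of log2 values against each other, with each dim array at its detection limit. They hold for the main background treatment only. The myofibroblast call was lost in 6 of 17 alternative analyses, whose adjusted p ranged between 0.00343 and 0.143. In particular it was lost without homogenate replicate 1 or 2, and without either fibroblast array.

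Upk3b encodes a uroplakin, a membrane protein of urothelium that mesothelial cells also make. Its signal was 1.84 and 1.91 in myofibroblasts, 1.94 and 2.19 in fibroblasts, and 184 and 155 in homogenate. Only homogenate was above background. Upk3b was at least 15.2-fold lower in myofibroblasts than in homogenate (limma, adjusted p = 0.000147) and at least 14.3-fold lower in fibroblasts than in homogenate (limma, adjusted p = 0.000151).

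Lrrn4, a leucine-rich repeat membrane protein first described in neurons, behaved in the same way. Its signal was 2.14 and 2.13 in myofibroblasts, 2.15 and 2.45 in fibroblasts, and 90.7 and 82.4 in homogenate, again with homogenate alone above background. It was at least 7.77-fold lower in myofibroblasts (limma, adjusted p = 0.000203) and at least 7.32-fold lower in fibroblasts (limma, adjusted p = 0.000216) than in homogenate. For Upk3b and Lrrn4 these calls held in all 17 alternatives of each comparison that tested them. The alternative that required signal above background on all arrays of both groups left both genes untested. Both passed the filter only through homogenate, so the repeated calls are no separate support. The limma fit took values below the detection limit as they stood, so these adjusted p-values rest on no measured spread in the sorted groups. The same holds for each group without signal above background in the other genes given here with a bound. The bounds for Lrrn4 are smaller because its homogenate signal stood closer to the detection limit, and they do not order the genes.

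The keratins Krt8 and Krt19 build the intermediate filaments of simple epithelia, mesothelium included. Krt19 had a signal of 4.48 and 17.7 in myofibroblasts, 3.01 and 2.40 in fibroblasts, and 1098 and 1023 in homogenate. Of the sorted arrays, only the second myofibroblast array was above background, at 2.04% of homogenate, and the first could hold at most 1.04%. Krt19 was lower in myofibroblasts than in homogenate (limma, adjusted p = 0.00165) and at least 89.7-fold lower in fibroblasts than in homogenate (limma, adjusted p = 0.000893).

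Krt8 had a signal of 8.37 and 15.5 in myofibroblasts, 10.5 and 2.36 in fibroblasts, and 309.6 and 334 in homogenate. One array of each sorted group was above background, the second of myofibroblasts at 5.91% of homogenate and the first of fibroblasts at 3.86%. The other array of each could hold at most 3.42% in myofibroblasts and 3.99% in fibroblasts. The sorted groups overlapped each other and neither overlapped homogenate. Krt8 was lower than in homogenate in myofibroblasts (limma, adjusted p = 0.00943) and in fibroblasts (limma, adjusted p = 0.00459). Its myofibroblast call was lost without myofibroblast replicate 1, with an adjusted p of 0.0532, and without homogenate replicate 1 or 2, with 0.0544 and 0.0612. Over all 17 alternatives that p ranged between 0.000464 and 0.0612.

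Wt1 and Bnc1 encode zinc-finger transcription factors, Wt1 a regulator of mesothelium, kidney and gonad development and Bnc1 (basonuclin) a factor of epithelial cells. Wt1 was above background on all 6 arrays. Its signal was 44.7 and 28.6 in myofibroblasts, 212 and 74.7 in fibroblasts, and 358 and 333 in homogenate. After scaling these came to 15.9% and 10.1% of homogenate in myofibroblasts and to 72.7% and 25.9% in fibroblasts. The 3 groups did not overlap, with homogenate highest and myofibroblasts lowest. Wt1 fell in myofibroblasts against homogenate by 2.98 ± 0.54 on the log2 scale (limma, SE, n = 2 each, adjusted p = 0.0133), which is a 7.89-fold lower level. That call was lost without myofibroblast replicate 2 (adjusted p = 0.0757) and without homogenate replicate 1 or 2 (0.0805 and 0.0799), and over 18 alternatives the adjusted p ranged between 0.00119 and 0.0805.

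In fibroblasts Wt1 did not pass the test against homogenate. Its log2 difference was -1.20 ± 0.54 (limma, SE, n = 2 each, adjusted p = 0.193), with a 95% interval between -2.55 and 0.14, and the fibroblast replicates lay 2.81-fold apart. Without fibroblast replicate 1 the difference was -1.95 and was called (adjusted p = 0.0308; range over 18 alternatives 0.0308 to 0.470). Bnc1 had a processed signal of 1.95 and 2.02 in myofibroblasts, 4.91 and 2.33 in fibroblasts, and 11.4 and 9.44 in homogenate. None of these was well above background, so no difference is given for it, and homogenate itself carried no measurable Bnc1 on these arrays.

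Upk1b, a tetraspanin that pairs with uroplakins of the Upk3 family, departed from the other markers. Its brighter probe had a signal of 549 and 373 in myofibroblasts, 2368 and 938 in fibroblasts, and 783 and 793 in homogenate. The scaled levels were 85.6% and 57.9% of homogenate in myofibroblasts and 356% and 142% in fibroblasts. Both fibroblast arrays thus lay above homogenate and both myofibroblast arrays below it. Neither difference passed the test. Upk1b differed by -0.51 ± 0.49 between myofibroblasts and homogenate (limma log2, SE, n = 2 each, adjusted p = 0.473, 95% interval -1.72 to 0.71). Between fibroblasts and homogenate it differed by 1.17 ± 0.49 (limma log2, SE, n = 2 each, adjusted p = 0.167, 95% interval -0.05 to 2.39). That last difference was called without fibroblast replicate 2, at 1.83 with an adjusted p of 0.0198 (range over 18 alternatives 0.0198 to 0.440).

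The second Upk1b probe had a signal of 48.9 and 54.3 in myofibroblasts, 183 and 129 in fibroblasts, and 93.2 and 122 in homogenate. It showed the same order of groups, at 56.2% and 62.2% of homogenate in myofibroblasts and 202% and 144% in fibroblasts. In a fit of all probes, added after the data were seen, it differed by -0.76 ± 0.32 between myofibroblasts and homogenate and by 0.77 ± 0.32 between fibroblasts and homogenate (limma log2, SE; adjusted p = 0.139 and 0.171). Thus Upk3b and Upk1b, whose proteins pair in urothelium, had unlike readings in the same sorted cells: Upk3b was above background on no sorted array, where both Upk1b probes stood at or above 56.2% of homogenate.

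**Figure D2:**
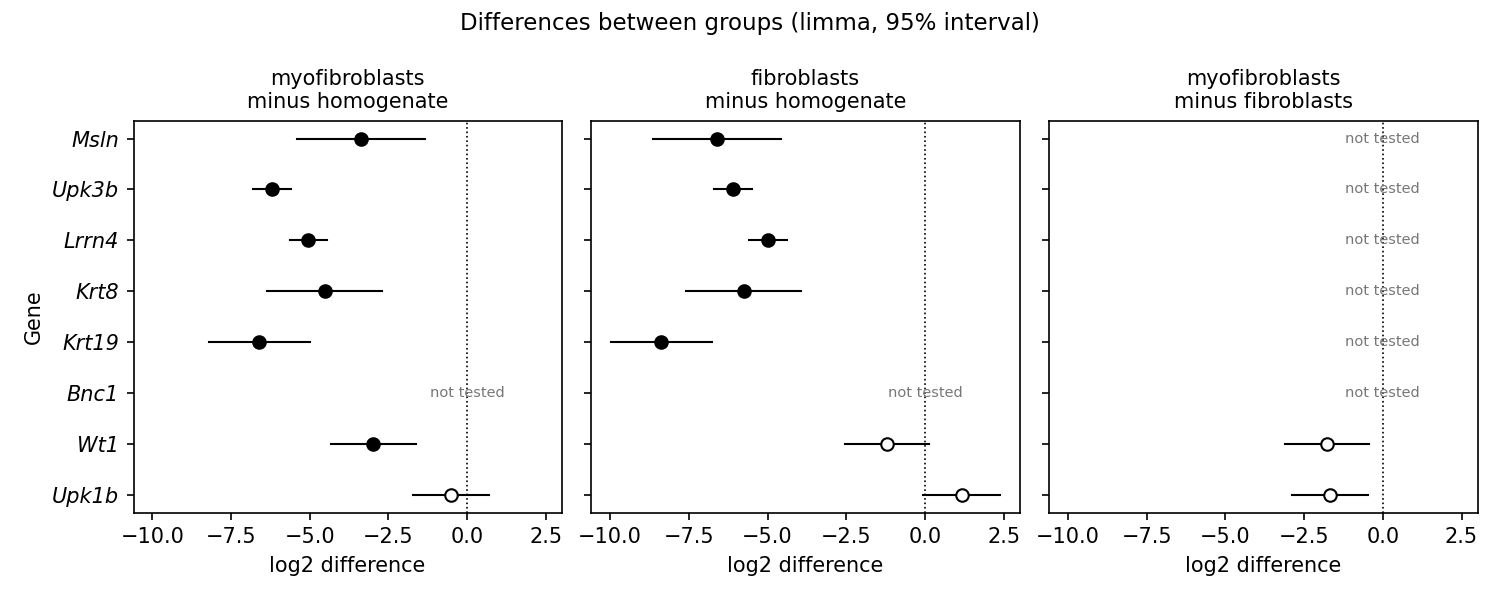
log2 differences for the 8 markers in the 3 comparisons, with 95% intervals from limma. Filled points were called at an adjusted p under 0.05 and open points were not. For genes not above background in a sorted group the point rests on values at the detection limit and is no measured size. The left and middle panels hold 6 and 5 called genes, all negative, and the right panel has Wt1 and Upk1b only, both negative and not called.

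Between the sorted groups, myofibroblasts from bleomycin-treated lung against steady-state fibroblasts, only Wt1 and Upk1b could be tested, and 0 of the 2 were called. Over all 15971 genes tested in this comparison 9.33% were higher in myofibroblasts and 8.13% lower. Wt1 differed by -1.77 ± 0.54 (limma log2, SE, n = 2 each, adjusted p = 0.0764, 95% interval -3.12 to -0.43). Upk1b differed by -1.68 ± 0.49 (limma log2, SE, n = 2 each, adjusted p = 0.0694, 95% interval -2.89 to -0.46). For both genes each myofibroblast array lay below each fibroblast array, as the shares of homogenate above show.

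Whether these differences were called turned on single arrays and on the scaling. Without fibroblast replicate 2, Upk1b differed by -2.34 (adjusted p = 0.0127) and Wt1 by -2.52 (adjusted p = 0.0130). Both were also called on the authors' normalized table, at -2.09 and -2.19 (limma, adjusted p = 0.0348 and 0.0392). Over 18 alternatives the adjusted p ranged between 0.0127 and 0.259 for Upk1b and between 0.0130 and 0.279 for Wt1. The second Upk1b probe, in the fit of all probes, differed by -1.53 ± 0.32 and was called as lower in myofibroblasts (limma log2, SE, adjusted p = 0.0327). Msln, with 1 of 2 myofibroblast arrays and 0 of 2 fibroblast arrays above background, was not tested here.

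Other genes known from mesothelial cells did not follow one pattern. Of 11 listed genes, 10 had a named probe, 9 were tested against homogenate and 8 between the sorted groups. In myofibroblasts against homogenate 1 was higher and 4 were lower, with a median log2 difference of -0.79 over the 9, against -0.01 over all genes tested. In fibroblasts against homogenate 1 was higher and 3 were lower, with a median of -0.18, against 0.03 over all genes tested. Between the sorted groups 1 was higher in myofibroblasts and 2 were lower, with a median of -0.28, against -0.06 over all genes tested. Against homogenate, 11.9% of all genes tested were higher and 15.1% lower in myofibroblasts, and 8.12% higher and 11.9% lower in fibroblasts. Between the sorted groups 9.33% of all genes tested were higher in myofibroblasts and 8.13% lower. At 1 of 9 or 1 of 8 genes, the counts of higher genes lay near those shares.

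Gpm6a, a neuronal membrane glycoprotein that mesothelium also makes, behaved like the low markers. Its scaled signal, in units of the array's 75th percentile, was 0.102 and 0.0796 in myofibroblasts, 0.0988 and 0.0766 in fibroblasts, and 5.02 and 4.77 in homogenate. It fell by 5.77 ± 0.28 in myofibroblasts and fell by 5.81 ± 0.28 in fibroblasts against homogenate (limma log2, SE, n = 2 each, adjusted p = 0.000206 and 0.000213). Podxl, a sialomucin of podocytes, endothelium and mesothelium, was above background in homogenate only. It was at least 41.1-fold lower in myofibroblasts and at least 38.7-fold lower in fibroblasts than in homogenate (limma, adjusted p = 0.000117 and 0.000135).

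Rspo1, a secreted enhancer of Wnt signalling, and Nkain4, a small membrane protein, were lower in myofibroblasts than in both other groups. Rspo1 had a scaled signal of 0.115 and 0.0639 in myofibroblasts, 2.22 and 1.05 in fibroblasts, and 1.26 and 1.42 in homogenate. It fell in myofibroblasts by 4.15 ± 0.47 against fibroblasts and fell by 3.96 ± 0.47 against homogenate (limma log2, SE, n = 2 each, adjusted p = 0.00613 and 0.00329). Nkain4 had a scaled signal of 0.325 and 0.445 in myofibroblasts, 1.52 and 1.10 in fibroblasts, and 0.915 and 0.758 in homogenate. It fell in myofibroblasts by 1.77 ± 0.31 against fibroblasts and fell by 1.13 ± 0.31 against homogenate (limma log2, SE, n = 2 each, adjusted p = 0.0202 and 0.0469). Like Wt1 and Upk1b, both had every myofibroblast array below every fibroblast array. In fibroblasts against homogenate neither passed the test (adjusted p = 0.818 for Rspo1 and 0.228 for Nkain4).

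Anxa8, a calcium-dependent membrane-binding annexin, ran the other way. Its scaled signal was 0.833 and 0.379 in myofibroblasts, 0.0451 and 0.0690 in fibroblasts, and 0.483 and 0.589 in homogenate. It was higher in myofibroblasts than in fibroblasts by 3.33 ± 0.46 and fell by 3.26 ± 0.46 in fibroblasts against homogenate (limma log2, SE, n = 2 each, adjusted p = 0.0105 and 0.00650). Pdpn, the mucin-like podoplanin of mesothelium, lymphatic vessels, type I alveolar cells and some fibroblasts, had 7.21 and 8.18 in myofibroblasts, 16.8 and 8.59 in fibroblasts, and 2.69 and 2.72 in homogenate. It was higher than in homogenate by 1.51 ± 0.37 in myofibroblasts and by 2.15 ± 0.37 in fibroblasts (limma log2, SE, n = 2 each, adjusted p = 0.0355 and 0.0134). Aldh1a2, Cldn15 and Cdh2 were called in no comparison, and Calb2 was above background on no array.

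**Figure D3:**
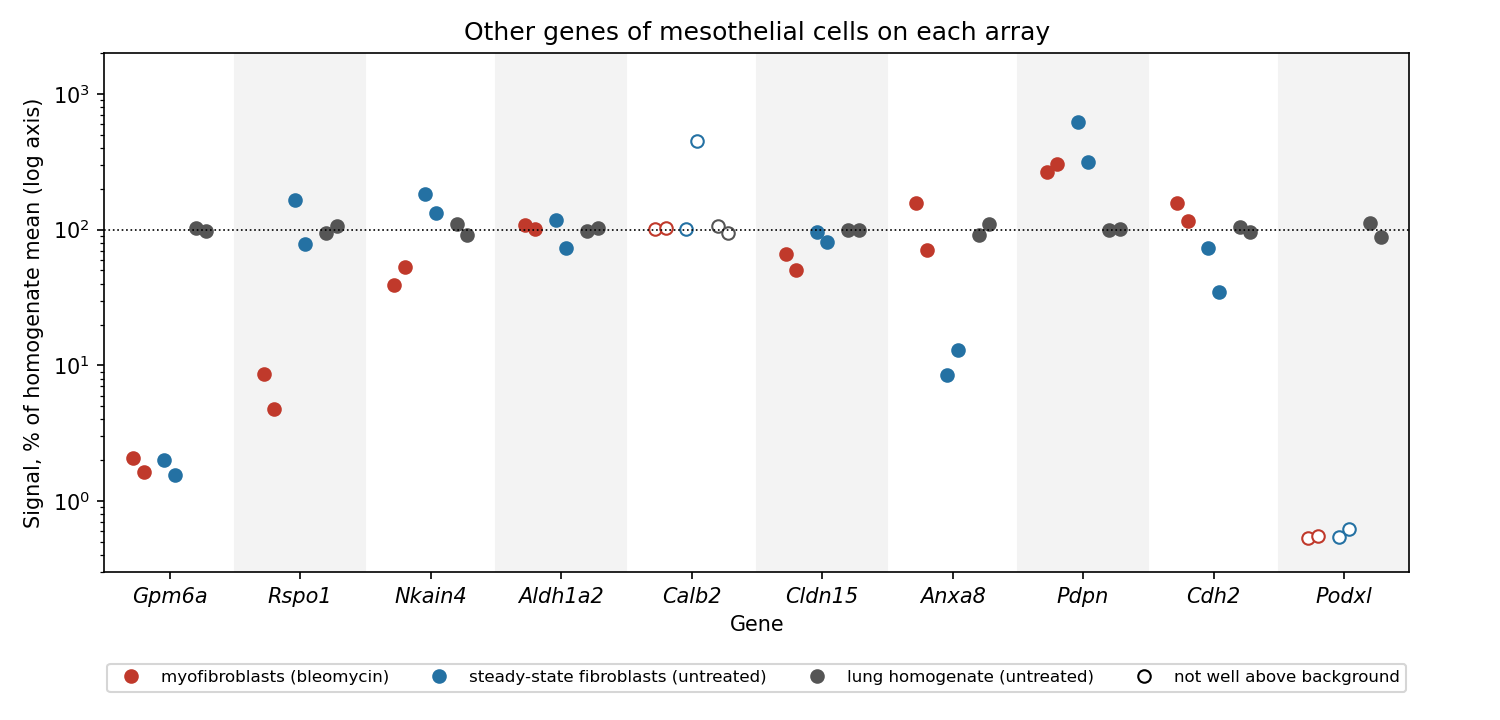
Signal of 10 other genes known from mesothelial cells on each array, as a percent of the homogenate mean (log axis, 1 point per array, myofibroblasts, fibroblasts and homogenate left to right). Open points were not well above background. Gpm6a and Podxl lie far below homogenate in both sorted groups, Rspo1 and Nkain4 are low in myofibroblasts, Anxa8 is low in fibroblasts, and Pdpn lies above homogenate in both.

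Relatives of the markers by family, and keratins that pair with them, were counted as a list of 16 genes. Of these, 12 were tested against homogenate and 8 between the sorted groups. In myofibroblasts 2 were higher and 3 lower than in homogenate, in fibroblasts also 2 were higher and 3 lower, and between the sorted groups 1 was higher in myofibroblasts and 0 lower. Over all genes tested, 11.9% were higher and 15.1% lower in myofibroblasts than in homogenate, 8.12% higher and 11.9% lower in fibroblasts than in homogenate, and 9.33% higher and 8.13% lower in myofibroblasts than in fibroblasts. With genes at the detection limit set to their bound, the median log2 differences were -0.89 and -0.24 from homogenate in myofibroblasts and fibroblasts, and -0.09 between the sorted groups, against -0.01, 0.03 and -0.06 over all genes tested. The members that fell in each sorted group were keratins. Krt18, the filament partner of Krt8, had a scaled signal of 0.102 and 0.0814 in myofibroblasts, 0.116 and 0.0944 in fibroblasts, and 1.66 and 2.02 in homogenate. It fell by 4.33 ± 0.28 in myofibroblasts and fell by 4.13 ± 0.28 in fibroblasts against homogenate (limma log2, SE, n = 2 each, adjusted p = 0.000473 and 0.000574). Krt7, also a simple-epithelial keratin, fell by 3.30 ± 0.24 in myofibroblasts and fell by 3.32 ± 0.24 in fibroblasts (limma log2, SE, adjusted p = 0.000632 and 0.000694). Krt15 was at least 3.01-fold lower in myofibroblasts and at least 2.83-fold lower in fibroblasts, and was above background in neither (limma, adjusted p = 0.0123 and 0.0441).

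Bnc2, the close relative of Bnc1, was measured throughout where Bnc1 was not. Its scaled signal was 3.87 and 3.84 in myofibroblasts, 4.10 and 3.41 in fibroblasts, and 0.757 and 0.460 in homogenate. It was higher than in homogenate by 2.71 ± 0.32 in myofibroblasts and by 2.66 ± 0.32 in fibroblasts (limma log2, SE, n = 2 each, adjusted p = 0.00331 and 0.00395). Lrrn2, a relative of Lrrn4, was not above background in homogenate. It was at least 7.59-fold higher in myofibroblasts and at least 2.58-fold higher in fibroblasts than in homogenate (limma, adjusted p = 0.000919 and 0.00387), and 2.95-fold higher in myofibroblasts than in fibroblasts (limma, adjusted p = 0.0467).

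Markers of other lung cell types were read the same way. With genes at the detection limit set to their bound, the mesothelial list had a median log2 difference from homogenate of -3.32 in myofibroblasts and -3.84 in fibroblasts over its 7 tested genes. The fitted medians, which place such genes below the limit, were -4.52 and -5.76. On the bounded scale, with myofibroblasts before fibroblasts, alveolar epithelium had -5.83 and -4.96 over 11 genes, endothelium -7.20 and -6.81 over 9 genes, airway epithelium -5.11 and -3.49 over 8 genes, leukocytes -5.76 and -6.02 over 9 genes, and genes shared by all epithelia -3.08 and -2.99 over 8 genes. Lower than in homogenate were 11 of 11 alveolar genes in both sorted groups, 9 of 9 endothelial genes in both, 8 and 7 of 8 airway genes, 7 and 8 of 9 leukocyte genes and 6 and 5 of 8 genes of all epithelia, and 0 genes of these lists were higher. Of all genes tested against homogenate, 15.1% were lower and 11.9% higher in myofibroblasts, and 11.9% lower and 8.12% higher in fibroblasts. Fibroblast genes, read as a check of the labels, had medians of 2.97 and 3.31 over 8 genes. Of these, 5 were higher and 0 lower in myofibroblasts, and 7 higher and 0 lower in fibroblasts. Pdgfra, which encodes the CD140a used to sort the fibroblasts, is among the 7 and is no check of that group.

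The summed scaled level of the mesothelial list was 26.7% and 18.0% of homogenate in myofibroblasts and 101% and 40.3% in fibroblasts. For alveolar epithelium it was 1.57% and 1.74% in myofibroblasts and 2.56% and 2.15% in fibroblasts, and for endothelium 0.9995% and 1.28% in myofibroblasts and 1.81% and 1.30% in fibroblasts. For airway epithelium it was 2.06% and 2.87% in myofibroblasts and 17.8% and 10.8% in fibroblasts. For leukocytes it was 36.6% and 35.1% in myofibroblasts and 38.8% and 33.7% in fibroblasts. That sum was carried by Itgam, at 114% and 116% of homogenate, with a mean scaled signal of 158 in myofibroblasts and 162 in fibroblasts. With dim arrays at their bound, the other leukocyte genes stood at or under 13.6% of homogenate in each sorted group. The genes shared by all epithelia summed to 23.0% and 21.5% in myofibroblasts and 34.5% and 31.6% in fibroblasts. The largest part of that sum was Cldn7, at 67.0% of homogenate in myofibroblasts and 88.7% in fibroblasts. The mesothelial sum in fibroblasts rested on Upk1b and Wt1, since Msln, Upk3b, Lrrn4, Krt19 and Bnc1 were not above background on either fibroblast array. The airway sum was carried by Scgb1a1, a secreted protein of club cells, with a scaled signal of 10.4 and 15.9 in myofibroblasts, 118 and 69.0 in fibroblasts, and 614 and 602 in homogenate. In the fit 3 of 7 tested airway genes were lower in myofibroblasts than in fibroblasts and 0 higher, where 8.13% of all genes tested were lower and 9.33% higher. Of the tested airway genes not called, Tppp3 and Muc5b differed by -0.88 and -0.72 on the log2 scale, and Bpifa1 and Sec14l3 by 0.14 and 0.11. The part of airway cells in the Wt1 and Upk1b differences was not tested.

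**Figure D4:**
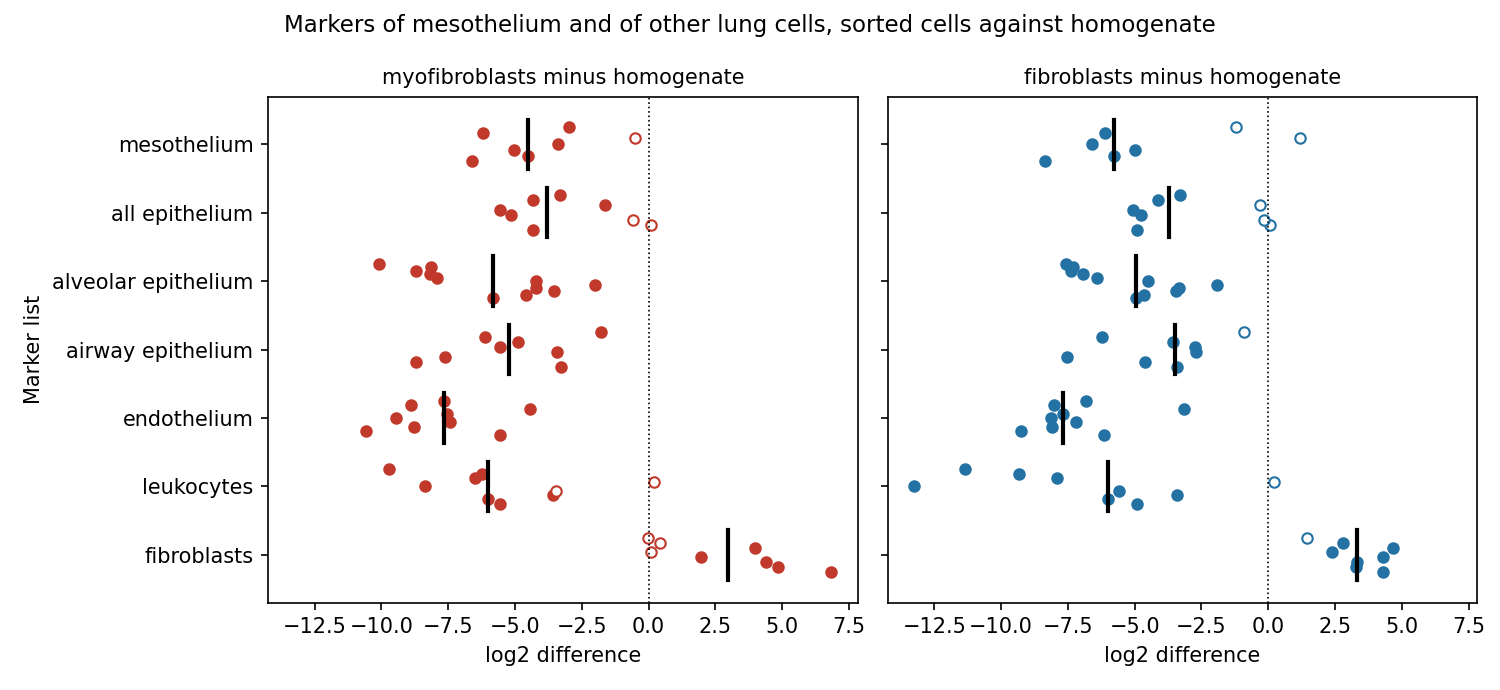
log2 differences from homogenate of single marker genes (points), grouped by cell type, for myofibroblasts (left) and fibroblasts (right). Filled points were called at an adjusted p under 0.05, open points were not, and black bars are the medians of the fitted values. All called genes of the mesothelial, epithelial, endothelial and leukocyte lists lie left of 0, and all called fibroblast genes lie right of 0.

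Krt19, the marker with the brightest probe in homogenate, was compared with 1172 genes over the 6 arrays. Shtn1, Laptm5, Cd53, Nckap1l and Wfdc21 had the highest Pearson correlations of log2 values with it, from 0.999712 for Shtn1 to 0.997783 for Wfdc21. Krt19 was above background on only 1 of the 4 sorted arrays, so the correlations rest largely on values below the detection limit and the order among these genes is not meaningful. Laptm5 and Cd53 are membrane proteins of leukocytes, and Nckap1l is an actin regulator of blood cells. What the 5 genes share with Krt19 is a high reading on both homogenate arrays and a low one on all 4 sorted arrays. The way these genes were chosen largely requires that pattern, and the arrays share 1 slide and 1 scaling.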

How the data were processed

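Each of the 6 samples was hybridised to its own one-colour (Cy3) Agilent array, with 5.8 ng of total RNA labelled, per the labels. Spot intensity in the deposited scanner files came from Agilent Feature Extraction 12.0.3.1, per the file headers background-subtracted and detrended by the authors' software, with small values replaced by positive surrogates. A deposited normalized intensity table was used as an alternative only: its columns were the processed signal times 1 constant per array for 99.6% of probes (within 1%), by a method that the labels and headers do not state.

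The values are log2 of processed signal minus log2 of the array's 75th percentile. Control and outlier spots were left out, spots of a probe averaged, and probes named through RefSeq accessions (32994 of 56605), taking a gene's brightest probe. Shares divide the scaled signal by the homogenate mean. Differences came from limma 3.58.1 in R 4.3.3 (lmFit, eBayes, two-sided), in 1 fit of all 6 arrays over 17395 genes with 3 residual degrees of freedom, adjusted by Benjamini-Hochberg per comparison and called under 0.05. The script was tested on simulated data. The named genes are the 8 markers, the called genes of the listed relatives, marker genes at the ends of a list and the 5 profiles most like Krt19. Airway genes tested but not called between the sorted groups are named too. A probe dim on an array was bounded by the lowest signal well above background there, which was 8.96 to 11.7. The alternatives changed the background correction, scaling, filter, probe rule, fit, threshold, replicate block and the arrays included. The number of arrays limits precision. The members and lists were chosen with earlier results of these data known.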

Additional observations from a re-analysis of the deposited data

How the results depend on the processing

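The number of markers called was recomputed under each alternative, and no difference changed direction in any of them. Between myofibroblasts and fibroblasts 0 were called, against 2 on the authors' table, 2 with the threshold raised to 0.1 and 1 with the mean of all probes (Upk1b, -1.60, adjusted p = 0.0335). Leaving out 1 array at a time gave 0 to 2. Requiring signal above background on all arrays of both groups left 2 markers tested, of which 1 was lower in myofibroblasts and 0 in fibroblasts against homogenate, in place of 6 and 5. Leaving out 1 array gave 3 to 5 in myofibroblasts, with 3 without either homogenate array, and 5 to 6 in fibroblasts. Single-marker differences kept their state, called or not called, in 257 cases, gained a call in 9 and lost it in 12. With the replicate number as a block the counts stayed at 0, 6 and 5 and no call changed. Same-numbered arrays did not deviate together (r = 0.05, 0.02 and -0.01 over 17395 genes). With 2 arrays per group this cannot exclude a pairing, on which the labels are silent. Shares of homogenate moved by more than the replicate spread in 34 cases and by less in 142. Part of the 142 could not move. Leaving out an array of the other sorted group, or averaging the probes of a gene with 1 probe, leaves a share as it was. With normexp and an offset of 50, which lifts dim probes, Msln in fibroblasts came to 25.2% and Lrrn4 in myofibroblasts to 46.0%. The fold bounds given above for the markers were not reached there. In myofibroblasts and fibroblasts the log2 differences from homogenate were -1.12 and -1.13 for Lrrn4 and -1.63 and -1.73 for Upk3b. In fibroblasts they were -1.99 for Msln and -3.85 for Krt19. Against the main scaling, the authors' table shifted the median gene by -0.41 between the sorted groups and by -0.50 between myofibroblasts and homogenate, and median scaling shifted it by 0.14, by 0.40 and, between fibroblasts and homogenate, by 0.27. The share of called genes that were higher was 53.4% between the sorted groups, against 25.6% on the authors' table and 64.4% with median scaling. It was 44.2% between myofibroblasts and homogenate, against 20.7% and 64.5%. Over all genes, 2789 were called between the sorted groups (903 to 5654 over the alternatives), 4639 between myofibroblasts and homogenate (1767 to 7815) and 3405 between fibroblasts and homogenate (1451 to 6202). The causes of these shifts were not tested.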
